A study of Mus musculus with 20 samples.

Results

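The collagen genes code for the chains of the collagens, the main fibrous proteins of connective tissue. They were taken as all non-control probes whose gene name had the form Col, a number, the letter a and a number, and the brightest probe that passed a filter on dim signals stood for each gene. This gave 40 genes with 80 probes, of 27574 genes with 41174 probes on the array. To pass, a probe had to exceed its background clearly on each array of some group in either genotype. Of the collagen genes, 34 passed, with 50 probes, of 17076 genes with 24896 probes in all. Col10a1, Col19a1, Col28a1, Col4a3, Col9a1 and Col9a3 did not pass and were not tested. Of the 34 tested, 28 were well above background on every wild type array of all 4 groups. The other 6 (Col11a1, Col12a1, Col15a1, Col17a1, Col24a1 and Col25a1) passed through some groups only. A further 4 probes carry a collagen name only under later nomenclature, and were left out because the array's own name did not match.

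The arrays compared Spdef knockout (KO) mice with wild type mice. Spdef, an ETS transcription factor, acts in secretory cells of the intestinal epithelium. RNA came from dissected whole small intestines or colons, taken from adults at postnatal day 30 or from fetuses at E18.5, and each pool combined 2 to 3 littermates. The labels give no strain and no further allele or treatment. Each of the 10 KO pools was hybridized together with a wild type pool of the same tissue and stage, in both dye orders, on 20 two-colour Agilent arrays. Adult small intestine gave 2 such pairs, adult colon 3, fetal small intestine 3 and fetal colon 2. Pairs 1 and 2 of fetal small intestine could not be separated from array noise (variance ratio 0.545, where other pairs of a group gave 1.26 to 5.71). They were averaged to 1 replicate, so that 9 replicates entered each fit. Nothing in the labels says that pools of a group came from separate litters, so the p-values measure the spread between these pools.

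In each channel of an array, 39.8% to 71.6% of the probes were well above background. Spdef itself was below wild type on 20 of 20 arrays, at log2 ratios from -4.09 to -1.20. Pair 3 of fetal small intestine and pair 1 of fetal colon, which shared a slide, went against their labels. Of 17 tested marker genes that separate small intestine from colon, 13 were nearer the adult colon level in the wild type pool labelled fetal small intestine 3, and 13 were nearer the adult small intestine level in the wild type pool labelled fetal colon 1. By contrast, 13 were nearer adult small intestine in each of the fetal small intestine pools 1 and 2, and 14 were nearer adult colon in fetal colon pool 2. The comparisons below follow the labels, and the calls on collagen genes are also given without these 2 replicates. Each fetal group then holds 1 replicate, which is assumed to vary like the other groups.

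Collagen chains assemble into a rope-like helix inside the endoplasmic reticulum, where enzymes hydroxylate and glycosylate them, and are trimmed and cross-linked after secretion. Fibrillar collagens form the cables of the submucosa, and fibril-associated (FACIT) collagens sit on the surface of those cables. Collagen IV forms the sheet of basement membranes under epithelium, around muscle cells and around vessels, and collagen VI forms beaded filaments beside it. Collagen VIII forms a short chain network and is known from vessel walls and smooth muscle. In the gut most collagen is made by fibroblasts and smooth muscle cells rather than by the epithelium. RNA was taken from whole tissue, so fewer cells of a type and less RNA per cell cannot be told apart.

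The stage comparison asked which collagen genes differed between wild type fetal and adult intestine. Adult colon 3 and fetal colon 2 shared a slide, and no other slide held pools of both stages. For the other pools slide and stage cannot be told apart. Of the 34 tested, 9 were higher and 1 was lower in fetal pools in the mean over both tissues. The fetal side of this mean takes the 4 fetal replicates with equal weight, so its value does not depend on which fetal pool is called small intestine or colon; the contrast was added after the region markers had been seen. Calls throughout are limma fits across all genes with a Benjamini-Hochberg adjusted p under 0.05, and values after ± are standard errors (SE) on the log2 scale. Of all 17076 genes, 11.2% were called higher and 11.5% lower in this contrast, against 26.5% and 2.94% of the collagen genes. Of the 9, Col11a1 passed the filter on dim signals only through its fetal arrays, so it had to read higher there and its call does not support the count. The median log2 difference was 0.60 over the collagen genes and 0.04 over all genes. Without the 2 replicates that went against their labels, 13 collagen genes were higher and 1 lower, beside 10.4% and 8.75% of all genes. In 9 of the 34 every fetal replicate lay above every adult replicate, a pattern found in 13.9% of all genes. Col11a1 is among these 9 and among the genes called higher without the 2 replicates, and it supports neither count.

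**Figure D1:**
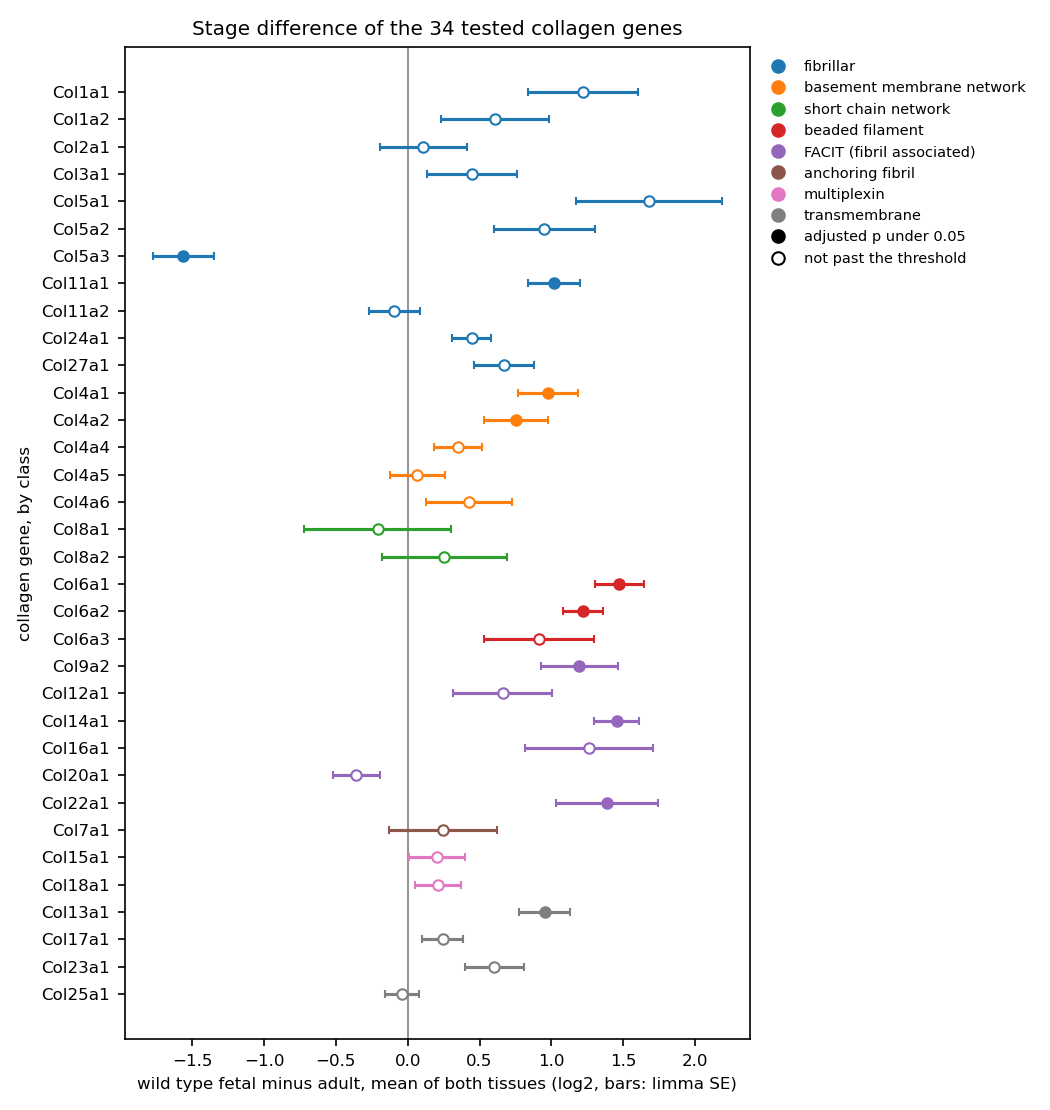
Wild type fetal minus adult log2 difference, averaged over both tissues, for each of the 34 tested collagen genes (4 fetal and 5 adult replicates; bars are limma SE; colours are collagen classes; filled points passed an adjusted p of 0.05). The 10 filled points are 9 genes to the right of 0 and Col5a3 at -1.56 on the left.

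Of the 3 beaded filament genes 2 were higher in fetal pools. Col6a1 codes for the alpha 1 chain of collagen VI. Its log2 level was 9.60 and 9.70 in the adult small intestine pools, 10.78, 10.44 and 10.66 in the adult colon pools, 11.47, 11.44 and 11.71 in the fetal small intestine pools and 11.33 and 11.96 in the fetal colon pools. Every fetal pool was thus above every adult pool. The mean difference was 1.47 ± 0.17 (2.78-fold, n = 4 fetal and 5 adult replicates, adjusted p = 0.00175), and 1.57 without the conflicting replicates (adjusted p = 0.00410). Col6a2, the alpha 2 chain, read 9.01 and 9.15 in adult small intestine, 9.98, 9.54 and 9.51 in adult colon, 10.68, 10.72 and 10.56 in fetal small intestine and 10.57 and 10.56 in fetal colon. Again no fetal pool overlapped an adult pool, with a mean difference of 1.22 ± 0.14 (adjusted p = 0.00175), and 1.25 without the conflicting replicates (0.0113). The size depends on the probe, since the other kept probe of Col6a2 gave 0.44. Both calls held in each of the 9 fits that left out a replicate. Col6a3, the third main chain of collagen VI, had a mean difference of 0.91 ± 0.38 (adjusted p = 0.126). It became a call without the conflicting replicates, at 1.06 ± 0.18 (adjusted p = 0.0141). Its 3 highest pools were fetal small intestine 3 (12.95), fetal colon 2 (13.56) and adult colon 3 (12.19).

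**Figure D2:**
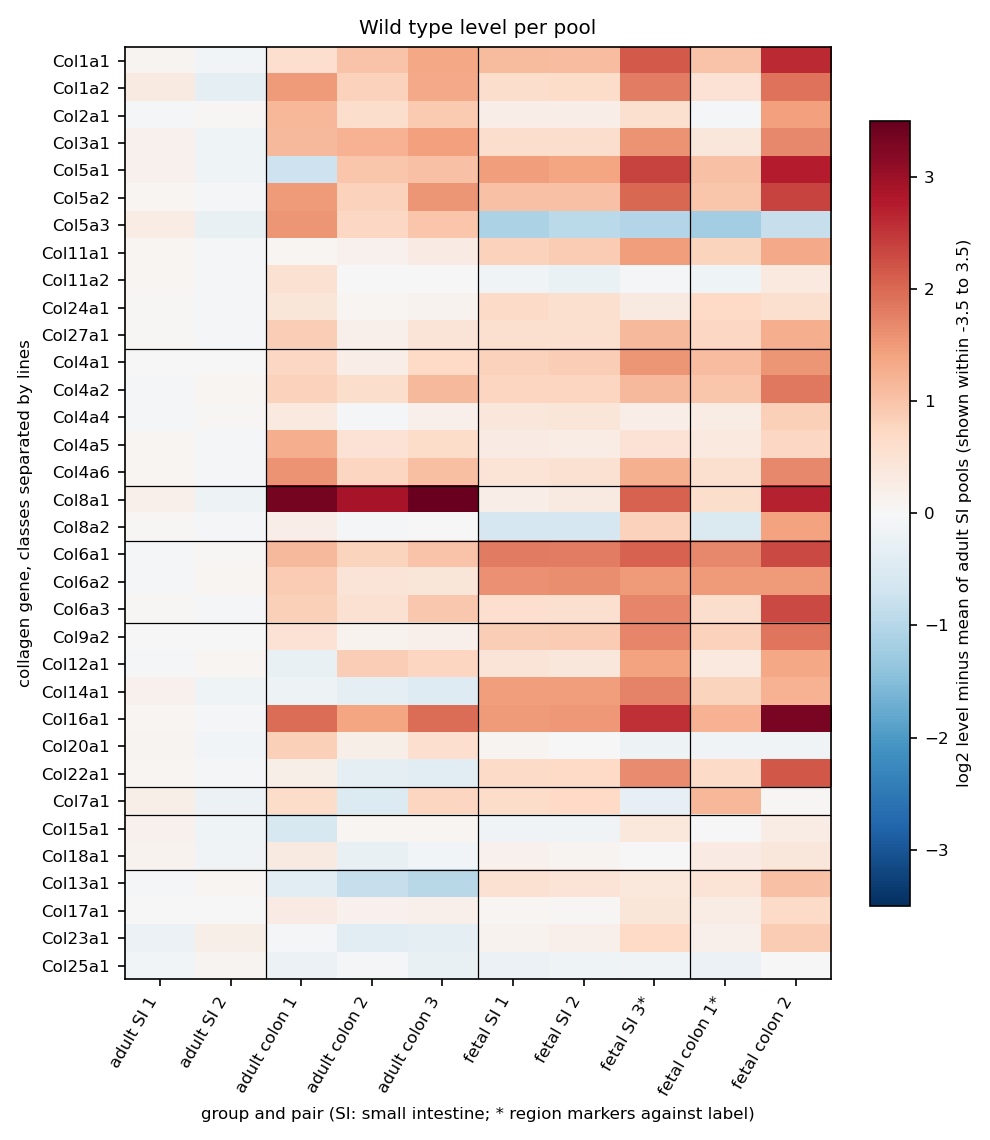
Wild type log2 level of each tested collagen gene (rows, grouped by class) in each of the 10 pools (columns), minus that gene's mean over the 2 adult small intestine pools; asterisks mark the 2 pools whose region markers went against their label. Col6a1 and Col6a2 are above the adult small intestine level in all 5 fetal pools, Col5a3 is below it in all 5, and Col8a1 is furthest above it in the 3 adult colon pools.

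Col6a1 and Col6a2 lie on the same chromosome and moved together here, and the 250 bases upstream of each start are shown to let their promoters be compared (RefSeq, GRCm38.p6, minus strand, Col6a1 chr10:76726045-76726294 and Col6a2 chr10:76623631-76623880, the more distant of 2 listed starts). Capitals mark GGAA on either strand (GGAA or TTCC), a core that ETS factors bind.
Col6a1: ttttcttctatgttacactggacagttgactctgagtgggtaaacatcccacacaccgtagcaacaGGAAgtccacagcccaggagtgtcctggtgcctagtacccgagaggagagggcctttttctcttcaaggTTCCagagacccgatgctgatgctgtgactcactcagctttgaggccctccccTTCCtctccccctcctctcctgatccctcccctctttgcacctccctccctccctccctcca
Col6a2: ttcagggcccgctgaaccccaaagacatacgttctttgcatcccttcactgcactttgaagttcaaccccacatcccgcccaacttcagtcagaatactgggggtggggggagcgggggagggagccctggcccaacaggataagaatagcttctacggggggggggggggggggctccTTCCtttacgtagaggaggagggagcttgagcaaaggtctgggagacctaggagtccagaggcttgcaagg
The core occurred at 3 positions for Col6a1 and at 1 in the window shown for Col6a2, against 5 in the window of its other listed start (chr10:76623405-76623654). It was present in 93.4% of 32851 upstream windows of that length, with a median of 3 positions, so its presence separates no gene from the others.

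Among the FACIT collagens, 3 of 6 tested genes were higher in fetal pools. Col14a1 encodes collagen XIV, which binds fibril surfaces and is linked to fibril spacing. It read 10.16 and 9.88 in adult small intestine, 9.85, 9.68 and 9.58 in adult colon, 11.48, 11.48 and 11.75 in fetal small intestine and 10.79 and 11.24 in fetal colon. All fetal pools lay above all adult pools, by 1.46 ± 0.16 in the mean (2.74-fold, adjusted p = 0.00120; 0.00492 without the conflicting replicates). Col22a1, a chain known from tissue junctions such as those of muscle and tendon, read 7.97 and 7.84 in adult small intestine, 8.12, 7.56 and 7.53 in adult colon, 8.58, 8.60 and 9.57 in fetal small intestine and 8.58 and 10.08 in fetal colon. The lowest fetal pool was above the highest adult pool, and the mean difference was 1.39 ± 0.35 (adjusted p = 0.0299), or 1.51 without the conflicting replicates (0.00937). This call was lost without adult small intestine 1 or 2 (adjusted p = 0.0918 and 0.107), adult colon 2 or 3 (0.0600 and 0.0713), fetal small intestine 3 (0.0886) or fetal colon 2 (0.0527). Col9a2, a chain of the cartilage collagen IX, read 7.50 and 7.54, then 8.02, 7.65 and 7.69 in the adult groups, against 8.39, 8.42 and 9.24 in fetal small intestine and 8.34 and 9.40 in fetal colon. Its mean difference was 1.19 ± 0.27 (adjusted p = 0.0200), and the call was lost without adult small intestine 1 or 2 (0.0749 and 0.0761), adult colon 3 (0.0518) or fetal small intestine 3 (0.0594), but held without both conflicting replicates (1.25, 0.00831). Col16a1 had a difference of similar size with a wider error (1.26 ± 0.45, adjusted p = 0.0810) and was called without the conflicting replicates (1.52 ± 0.22, adjusted p = 0.00942). Col20a1 had the opposite sign, at -0.36 ± 0.16, and did not pass.

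The 11 fibrillar genes split. Col5a3, the alpha 3 chain of collagen V, which accompanies collagen I fibrils, was the only collagen gene called lower in fetal pools. It read 9.49 and 8.99 in adult small intestine, 10.78, 9.97 and 10.21 in adult colon, 8.12, 8.30 and 8.22 in fetal small intestine and 8.03 and 8.42 in fetal colon. The fetal levels lay below all adult levels (mean difference -1.56 ± 0.21, 2.95-fold lower, adjusted p = 0.00313), with -1.47 without the conflicting replicates (adjusted p = 0.0202). Col11a1, a minor chain that takes part in starting thin fibrils, read 7.26 and 7.15 in adult small intestine, 7.26, 7.36 and 7.48 in adult colon, 8.02, 8.09 and 8.66 in fetal small intestine and 7.98 and 8.53 in fetal colon. Its fitted difference was 1.02 ± 0.18 (adjusted p = 0.00885; 1.00 and 0.0113 without the conflicting replicates), but it was well above background on only 2 of 4 wild type adult small intestine arrays and 5 of 6 adult colon arrays, so the adult level and the size of the difference are uncertain. The calls of Col5a3 and Col14a1 held in each of the 9 fits that left out a replicate. That of Col11a1 held too, but the filter on dim signals set its direction, so these fits do not support it. The chains of the bulk fibrils, Col1a1 (1.22 ± 0.38, adjusted p = 0.0575), Col1a2 (0.61) and Col3a1 (0.45), did not pass. Col1a1 (1.36, adjusted p = 0.0167) and Col5a2 (1.05, adjusted p = 0.0381) were called without the conflicting replicates. For Col1a1 the range was 12.89 to 14.35 in adult pools and 13.99 to 15.60 in fetal pools, so the stages overlapped. Col5a1 had the largest difference of the class (1.68). Every fetal pool was above every adult pool, but only just (12.02 in fetal colon 1 against 12.01 in adult colon 3). Adult colon pool 1 (10.27) lay far from the other adult colon pools (11.97 and 12.01), and the adjusted p was 0.0516.

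In the basement membrane class, the genes of the alpha 1 and alpha 2 chains of collagen IV, Col4a1 and Col4a2, were higher in fetal pools. Their start sites lie 21 bases apart on opposite strands, and they share a promoter region. Col4a1 read 10.63 and 10.61 in adult small intestine, 11.34, 10.85 and 11.33 in adult colon, 11.43, 11.49 and 12.17 in fetal small intestine and 11.69 and 12.17 in fetal colon, so that the fetal pools lay above the adult ones (0.98 ± 0.21, adjusted p = 0.0167). The call was lost without adult small intestine 1 (adjusted p = 0.0653) or 2 (0.0700), and held without both conflicting replicates (0.92, 0.0298). Col4a2 overlapped between the stages, with adult pools from 10.18 to 11.38 and fetal pools from 11.02 to 12.11, and its difference was 0.75 ± 0.22 (adjusted p = 0.0472), or 0.88 without the conflicting replicates (0.0322). This call stayed in 1 of the 9 fits that left out a replicate, the fit without fetal colon 1; in the others the adjusted p was 0.0634 to 0.149. The chains of other collagen IV networks did not pass, at 0.35 for Col4a4, 0.07 for Col4a5 and 0.43 for Col4a6.

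Of the transmembrane collagens, which cells carry on their surface, Col13a1 was higher in fetal pools. It read 9.24 and 9.40 in adult small intestine, 8.92, 8.52 and 8.36 in adult colon, 9.86, 9.81 and 9.69 in fetal small intestine and 9.79 and 10.34 in fetal colon. No fetal pool overlapped an adult pool (0.95 ± 0.18, adjusted p = 0.0107; 1.13 and 0.0176 without the conflicting replicates), although its other kept probe gave 0.41 and the call was lost without adult small intestine 1 (adjusted p = 0.0530). Col17a1, Col23a1 and Col25a1 did not pass. Neither did the anchoring fibril gene Col7a1 (0.25), the basement membrane collagens Col15a1 and Col18a1 (0.20 and 0.21) or the short chain collagens Col8a1 (-0.21) and Col8a2 (0.26). In all, 15 tested genes had another kept probe, and in 15 of them every kept probe gave the same sign for the stage difference. The same count was 12 of 15 for adult colon minus small intestine and 10 of 15 for KO adult colon. With the KO pools in place of the wild type pools, 9 of the 10 calls stood, and Col4a2 (0.61, adjusted p = 0.118) did not. KO pools shared arrays and slides with their wild type partners, so this is no separate check on slide differences. Col11a1 is among the 9 and does not support this count, because of the filter on dim signals.

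Taken tissue by tissue, fewer genes passed. Fetal and adult small intestine pools shared no slide, so slide and stage cannot be told apart in that tissue. Between fetal and adult small intestine, Col6a1 (1.93 ± 0.25, adjusted p = 0.00563), Col14a1 (1.60 ± 0.23, 0.00807), Col6a2 (1.55 ± 0.21, 0.00642) and Col11a1 (1.15 ± 0.27, 0.0427) were higher in the fetal pools and none was lower. That is 4 of 34, where 8.93% of all genes were called (3.81% higher and 5.12% lower). For the reason given with the stage mean, the call of Col11a1 does not support this count. Col11a1, which passed the dim-signal filter through its fetal arrays, was lost without the conflicting replicates (adjusted p = 0.0941), and all 4 were lost without adult small intestine 1 or 2 (adjusted p from 0.0515 to 0.249). With the conflicting replicates left out 6.44% of all genes were called (3.16% higher and 3.29% lower). Without fetal small intestine 3, Col14a1 (0.0645) and Col11a1 (0.213) were lost, and without adult colon 2 or 3 Col11a1 was (0.0698 and 0.0828). Between fetal and adult colon, Col13a1 (1.47 ± 0.24, adjusted p = 0.0134), Col14a1 (1.31 ± 0.21, 0.0122), Col6a1 (1.02 ± 0.23, 0.0382) and Col6a2 (0.89 ± 0.19, 0.0320) were higher in the fetal pools, 4 of 34 beside 3.13% of all genes. Col5a3 was lower (-2.10 ± 0.29, adjusted p = 0.00649), beside 6.02% of all genes. On leaving out the conflicting replicates 11 were higher and 1 lower, beside 5.15% and 5.03% of all genes (10.2% in all), Col6a2 was lost (adjusted p = 0.0981), and the largest was Col22a1 (2.34 ± 0.30, adjusted p = 0.0118). The 4 higher calls in colon were lost without adult colon 3 (0.0525 to 0.111) or fetal colon 2 (0.0600 to 0.148). Col6a1 and Col6a2 were also lost without adult colon 2 (0.0893 and 0.0788), without either adult small intestine replicate (0.0844 and 0.0752) and without either fetal small intestine replicate (0.0543 and 0.0514), and Col6a2 without fetal colon 1 (0.110). Within the slide that held adult colon 3 and fetal colon 2, the fetal minus adult values were 1.98 for Col13a1, 1.66 for Col14a1, 1.30 for Col6a1 and -1.79 for Col5a3. No collagen gene passed the test of whether the stage difference itself differed between the tissues with limma, beside 0.638% of all genes (0.392% higher, and 0.808% in all without the conflicting replicates). Of the collagen genes 4 had an unadjusted p under 0.05.

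Markers of other cell types were read in the stage mean as well, where 11.2% of all genes were called higher and 11.5% lower. Of 8 endothelial markers 6 were higher in fetal pools, with a median of 0.69 over the list, and of 12 fibroblast markers 3 were (median 0.48). All 9 epithelial markers had negative values, of which 5 were called lower (median -1.20). None of 10 smooth muscle markers was called by limma (median 0.08), and 1 was called higher without the conflicting replicates. All 7 neuron and glia markers had positive values (median 1.31), of which 1 was called higher, and 6 without the conflicting replicates. Their summed level was 3501 to 7809 in adult pools, 25458 in fetal small intestine pool 3, 32319 in fetal colon pool 2 and 6348 to 6797 in the other fetal pools. All 9 pancreas markers had negative values (median -4.73), of which 1 was called lower. Of 6 keratinocyte markers 3 were higher, of 7 proliferation markers 1 and of 5 skeletal muscle markers 1, and none of 5 cartilage and bone markers was called by limma. The summed level of the fibroblast markers, on the linear intensity scale, was 20739 to 37802 in adult pools and 34262 to 71981 in fetal pools, and the highest were fetal small intestine 3 and fetal colon 2. The part of these cell types in the collagen differences was not tested.

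The tissue comparison asked how colon and small intestine differed within a stage. In adults Col8a1 had the largest difference of the collagen genes. Col8a1 encodes the alpha 1 chain of collagen VIII; its probe lies at chr16:57548065-57548124 (mm8, minus strand). The log2 level was 9.70 and 9.33 in adult small intestine, 12.87, 12.40 and 12.98 in adult colon, 9.74, 9.82 and 11.58 in fetal small intestine and 10.13 and 12.21 in fetal colon. Adult colon was above adult small intestine in every pool, by 3.24 ± 0.69, but with the fetal pools taken by their labels the adjusted p was 0.0551. Without the conflicting replicates the same difference, 9.43-fold, had an SE of 0.25 and an adjusted p of 0.00126. The other kept probe gave 2.36, and pool 2 of each adult group, on the same slide, differed by 3.07. The test also passed on leaving out either fetal colon replicate (adjusted p = 0.0227) or either fetal small intestine replicate (0.0379), and did not pass on leaving out any adult replicate (adjusted p up to 0.377). In the fetus the labelled groups overlapped (colon minus small intestine 0.49 ± 0.76, adjusted p = 1.00). When the conflicting replicates were left out it was 2.43 ± 0.38 (adjusted p = 0.0374, 1 replicate a group), with Col8a2 (1.98, 0.0272) and Col6a3 (1.74, 0.0446) also higher, 3 of 34 beside 1.01% of all genes higher and 2.04% lower (3.05% in all). By the labels no collagen gene passed limma in this contrast, beside 0.00586% of all genes, and 1 had an unadjusted p under 0.05.

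**Figure D3:**
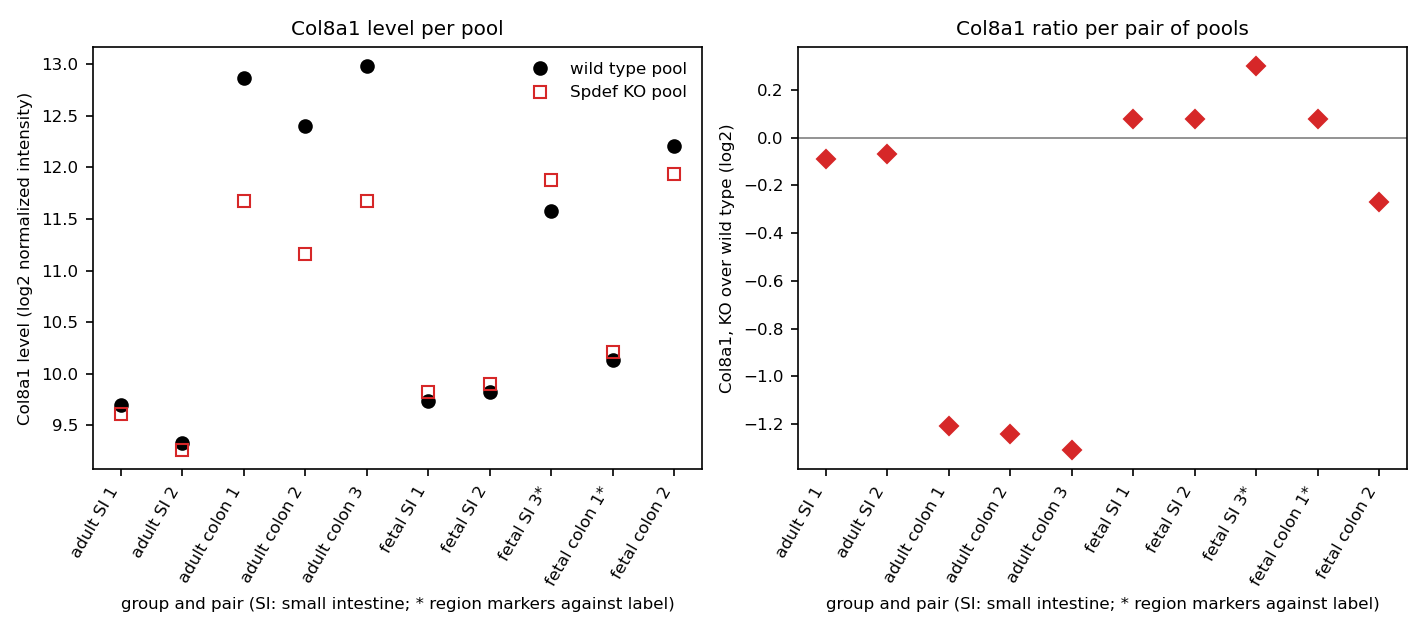
Left, log2 level of Col8a1 in the wild type (filled circles) and KO (open squares) pool of each of the 10 pairs; right, log2 ratio of KO over wild type in each pair; asterisks mark pairs whose region markers went against their label. The wild type adult colon pools sit between 12.40 and 12.98, and the 3 adult colon ratios between -1.31 and -1.21, apart from all other ratios (-0.27 to 0.30).

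The region upstream of the Col8a1 start (RefSeq, GRCm38.p6, chr16:57754738-57754987, minus strand) is shown because this gene had the largest change in KO colon described below; capitals again mark GGAA on either strand.
Col8a1: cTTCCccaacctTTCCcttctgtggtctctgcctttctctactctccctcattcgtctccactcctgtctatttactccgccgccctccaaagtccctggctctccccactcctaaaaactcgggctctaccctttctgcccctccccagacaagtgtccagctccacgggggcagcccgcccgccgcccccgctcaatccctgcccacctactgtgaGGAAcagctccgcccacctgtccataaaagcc
It held the core at 3 positions, the median of all windows. CCGGAA, a longer form of the core, and CCGGAT, which has GGAT in place of GGAA, were searched on both strands. Each was found in 0 of the 35 windows of the 32 collagen genes with a listed promoter. Of all windows of the same length, 12% and 4.94% held them. No match says only that these letters are not in these windows.

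The other collagen genes differed less between adult tissues. In 21 of 34 every adult colon pool was above both adult small intestine pools, a pattern found in 27.3% of all genes, and in 2 (Col13a1 and Col14a1) every colon pool was below, against 19% of all genes. The median log2 difference was 0.48 over the collagen genes and 0.05 over all genes. By the labels none passed limma, beside 3.13% of all genes (1.66% higher and 1.48% lower), and 13 had an unadjusted p under 0.05. Without the conflicting replicates 5 were higher in colon and none lower, beside 4.71% and 4.33% of all genes (9.04% in all). Besides Col8a1 these were Col16a1, Col5a2, Col3a1 and Col6a1. Col16a1, a FACIT chain, was at 10.25 and 10.11 in small intestine against 12.14, 11.56 and 12.14 in colon (1.77 ± 0.24, adjusted p = 0.0104), with no overlap. Col3a1, a main fibrillar chain of elastic tissues, was at 14.04 and 13.73 against 15.01, 15.09 and 15.33 (1.26 ± 0.20, adjusted p = 0.0170). Col5a2 (1.29 ± 0.27, 0.0418) and Col6a1 (0.98 ± 0.18, 0.0294) completed the set, and all pools of colon lay above those of small intestine for each. By class the median was 0.89 for fibrillar, 0.80 for basement membrane and 0.78 for beaded filament genes, against -0.21 for transmembrane genes. All 10 smooth muscle markers had positive values (median 1.42), and their summed level was 67308 to 90466 in adult small intestine, 250478 to 307255 in adult colon, 76532, 78754 and 262018 in fetal small intestine and 74652 and 286686 in fetal colon. In adult small intestine against adult colon, endothelial markers summed to 6884 and 6693 against 5444, 3809 and 4601. Fibroblast markers summed to 28584 and 20739 against 37802, 28631 and 36007. Neuron and glia markers gave 4536 and 3501 against 7809, 6099 and 7087. Epithelial markers gave 648039 and 705825 against 676106, 813024 and 739375. Pancreas markers gave 84530 and 32252 against 394526, 7348 and 531077. The part of these cell types in the tissue differences was not tested.

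The KO comparison asked how loss of Spdef changed collagen RNA, and in adult colon Col8a1 was lower. The log2 ratio of KO over wild type was -1.21, -1.24 and -1.31 in the 3 pairs, and -1.36 to -1.06 on the 6 arrays. The spread between pairs was thus small against the size, and the fitted value was -1.25 ± 0.07, or 2.38-fold lower (n = 3, adjusted p = 1.19e-04). In level, the KO pools read 11.67, 11.16 and 11.67 where their wild type partners read 12.87, 12.40 and 12.98, which left the KO colon pools above the adult small intestine pools of either genotype (9.26 to 9.70). The other kept probe gave -1.25. All 24 alternative settings kept this direction, and the adjusted p stayed under 0.05 in each that gave a test (2.28e-05 to 0.0219).

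Elsewhere Col8a1 did not change by the test. Its ratios were -0.09 and -0.07 in adult small intestine, 0.08, 0.08 and 0.30 in fetal small intestine, and 0.08 and -0.27 in fetal colon. The fitted values were -0.08 ± 0.09, 0.19 ± 0.09 and -0.10 ± 0.09, with adjusted p from 0.691 to 1.00. The KO effect differed between adult and fetal groups by -0.71 ± 0.08 (adjusted p = 0.0125) and between colon and small intestine by -0.73 ± 0.08 (adjusted p = 0.0181). Leaving out the conflicting replicates gave -0.57 (adjusted p = 0.130) and -0.76 (0.0581). The first was also lost without fetal small intestine 3 (0.0527), and the second without adult small intestine 1 (0.0566) or 2 (0.0538), adult colon 1 (0.0892) or fetal small intestine 3 (0.0596). Over all genes 1.08% and 0.170% were called in these contrasts. In the mean of the 4 groups Col8a1 was the only collagen gene called (-0.31 ± 0.04, adjusted p = 0.0108), beside 1.79% of all genes, and also without the conflicting replicates (-0.38 ± 0.03, 0.0160), beside 0.269%.

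In adult colon 4 of 34 collagen genes were lower and none higher in KO pools, beside 5.66% and 3.93% of all genes (9.59% in all). Besides Col8a1 these were Col20a1, Col14a1 and Col7a1. Col20a1, a FACIT chain, had ratios of -0.36, -0.37 and -0.34 (-0.35 ± 0.04, adjusted p = 0.00231), and its call held in each of the 9 fits that left out a replicate. Col14a1 had -0.48, -0.64 and -0.41 (-0.51 ± 0.12, adjusted p = 0.0389). Its call was lost without any of the 3 adult colon replicates (0.152, 0.135 and 0.0739), either adult small intestine replicate (0.0520) or either fetal colon replicate (0.0698), but held without both conflicting replicates (0.0253). Col7a1 forms the fibrils that anchor epithelial basement membranes, and its pairs differed widely, at -0.56, -0.17 and -0.86 (-0.53 ± 0.12, adjusted p = 0.0340). That call was lost without the conflicting replicates (0.0806), adult colon 1 (0.154) or 3 (0.0989), or either fetal colon replicate (0.0617). Without the conflicting replicates Col16a1 (-0.34 ± 0.04, adjusted p = 0.0209) and Col3a1 (-0.33 ± 0.05, 0.0273) were called lower as well, for 5 lower and none higher of 34, beside 2.95% and 1.62% of all genes (4.57% in all). Col3a1 had ratios of -0.32, -0.31 and -0.37, and Col16a1 of -0.36, -0.35 and -0.32. In 23 of 34 the KO pool was below its wild type partner in all 3 pairs, a pattern found in 24.9% of all genes, and in 3 it was above in all 3, against 21.8%. The ratios of the bulk chain genes Col1a1 (-0.17, -0.13 and -0.25) and Col1a2 (-0.36, -0.08 and -0.35) were negative in every pair and did not pass. The class medians were -0.78 for the short chain genes Col8a1 and Col8a2, -0.26 for FACIT and -0.15 for fibrillar genes, and up to 0.04 for the multiplexins Col15a1 and Col18a1.

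**Figure D4:**
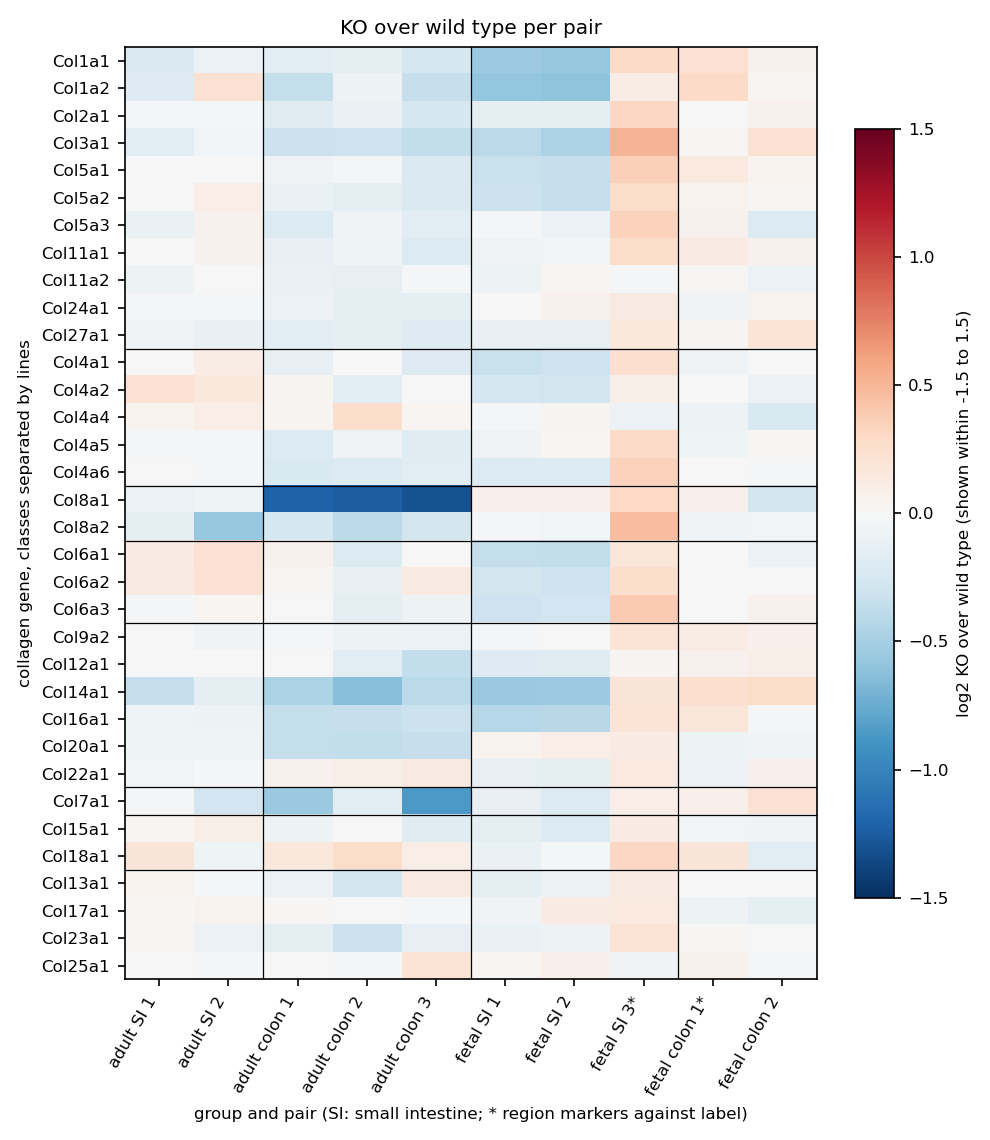
Log2 ratio of KO over wild type for each tested collagen gene (rows, grouped by class) in each of the 10 pairs of pools (columns); asterisks mark the pairs whose region markers went against their label. Col8a1 in the 3 adult colon pairs (-1.21, -1.24 and -1.31) is the deepest blue, and the columns of fetal small intestine pairs 1 and 2 are mostly blue where pair 3 is mostly red.

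Markers of other tissues differed between the partners in adult colon. Over all genes 3.93% were called higher and 5.66% lower in this contrast. Pancreas markers, 9 of 10 of them tested, summed to 394526 and 531077 in wild type adult colon pools 1 and 3 and to 7348 in pool 2, and their median ratios were -2.64, -0.07 and -2.92 in pairs 1, 2 and 3. Over the other groups the sum was 32252 to 84530 in adult small intestine, 1787 to 3517 in fetal small intestine and 1821 to 1825 in fetal colon. In pair 2, where the pancreas ratio was near 0, Col8a1 was at -1.24, Col20a1 at -0.37, Col14a1 at -0.64 and Col7a1 at -0.17. Smooth muscle markers had median ratios of -0.24, -0.44 and -0.13, with 9 of 10 below 0 in each pair; none was called by limma, and 2 were called lower without the conflicting replicates. Fibroblast markers had medians of -0.11, -0.19 and -0.10, with 10, 9 and 8 of 12 below 0, and Mfap5 was called lower. Neuron and glia markers were below 0 in all 7 tested genes in each pair, and 4 were called lower (3 without the conflicting replicates). Proliferation markers were above 0 in all 7 tested genes in each pair, with medians of 0.31, 0.50 and 0.29, and 4 were called higher (2 without the conflicting replicates). All 9 epithelial markers had positive fitted values (median 0.09), with Krt8 and Krt19 called higher. In pairs 1, 2 and 3, however, 0, 5 and 3 of these 9 were below 0, with median ratios of 0.13, 0 and 0.24. All 8 endothelial markers had negative fitted values (median -0.15), and none was called by limma. Of these 8, 7, 5 and 8 were below 0 in pairs 1, 2 and 3, with median ratios of -0.15, -0.04 and -0.25. The part of these cell types in the collagen ratios was not tested.

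In the other groups no collagen gene passed. In adult small intestine the ratios ranged from -0.57 (Col8a2 in pair 2, against -0.15 in pair 1) to 0.23, 0.398% of all genes passed limma (0.041% higher without the conflicting replicates), and 1 collagen gene had an unadjusted p under 0.05. In fetal colon they ranged from -0.27 to 0.29 with 0.287% of all genes called and no collagen gene at an unadjusted p under 0.05. In fetal small intestine, with 0.439% of all genes called and again no collagen gene at an unadjusted p under 0.05, the pairs moved in opposite directions. The median ratio over the collagen genes was -0.13 in pairs 1 and 2, which count as 1 replicate, and 0.20 in pair 3, whose region markers went against its label. In 25 of 34 the ratio was below 0 in pairs 1 and 2 and above 0 in pair 3, a pattern found in 26.7% of all genes. Col1a1 read -0.55, -0.57 and 0.29, Col3a1 -0.41, -0.48 and 0.51, and Col14a1 -0.56, -0.55 and 0.19. Smooth muscle markers went the same way, with 10, 10 and 1 of 10 below 0, as did endothelial markers with 8, 8 and 0 of 8, and fibroblast markers with 10, 11 and 0 of 12. Epithelial markers did not, with 7 of 9 below 0 in each pair. The part of these cell types in the fetal ratios was not tested.

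The genes that process collagen were described from lists of their functions. In the stage mean, where 11.2% of all genes were higher and 11.5% lower, 8 of 19 tested genes for folding and modification in the endoplasmic reticulum were higher in fetal pools and 1 was lower (median 0.86). Crtap (1.82 ± 0.20, adjusted p = 0.00141) and P3h1 (0.83 ± 0.13, 0.00518), partners in prolyl 3-hydroxylation of collagen, and the isomerase Fkbp14 (1.09 ± 0.20, 0.00918) led those higher. Mia3, which loads procollagen for export, was lower (-1.43 ± 0.19, adjusted p = 0.00275). Of 18 genes for propeptide removal, cross-linking and fibril assembly, 3 were higher, namely Lox, which oxidises lysines for cross-links (1.97 ± 0.30, adjusted p = 0.00507), the proteoglycan gene Lum (1.95 ± 0.41, 0.0158) and the propeptide protease Bmp1 (0.94 ± 0.21, 0.0204). In that list Prelp (-2.10 ± 0.25, adjusted p = 0.00212) and Pcolce2 (-0.77 ± 0.17, 0.0182) were lower. The call of Pcolce2 was lost without the conflicting replicates (-0.79). Degradation genes counted 2 higher of 10, the gelatinase Mmp2 (1.33 ± 0.11, adjusted p = 4.93e-04) and the inhibitor Timp1 (0.91 ± 0.25, 0.0398). Collagen receptors counted 0 higher and 2 lower of 8, the integrin chain Itga1 (-0.83) and the leukocyte receptor Lair1 (-0.94). Both receptor calls were lost without the conflicting replicates (-0.69 and -0.92). Basement membrane partners counted 5 higher of 13, among them Pxdn, which cross-links collagen IV (1.73 ± 0.32, adjusted p = 0.00993), and Nid2, a nidogen (1.46 ± 0.14, 8.33e-04), and 2 lower, among them the epithelial laminin chain Lamb3 (-1.64). After removal of the conflicting replicates the counts of higher genes were 11, 4, 2, 0 and 5 in the order of these lists.

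In KO adult colon 9.59% of all genes were called, 3.93% higher and 5.66% lower. Mia3 was the only folding gene called of 19 and was lower (-0.48 ± 0.05, adjusted p = 0.00200). Among the assembly genes 4 of 18 were lower and none higher, namely Aspn (-0.53 ± 0.05, adjusted p = 0.00200), Prelp (-0.39 ± 0.08, 0.0208), Pcolce2 (-0.36 ± 0.04, 0.00330) and Ogn; of these Aspn, Prelp and Ogn encode small leucine-rich proteins of the matrix. Of 10 degradation genes, the inhibitor Timp3 was lower (-0.50 ± 0.06, adjusted p = 0.00426), and Timp1 (0.38 ± 0.07, 0.0160) and the collagenase Mmp13 (0.22 ± 0.05, 0.0450) were higher. Of 8 receptors, the fibroblast integrin chain Itga11 (-0.37 ± 0.07, adjusted p = 0.0188) and the platelet receptor Gp6 (-0.26 ± 0.04, 0.0111) were lower. Of 13 basement membrane partners, Lamb2 was lower (-0.25 ± 0.06, adjusted p = 0.0417). The calls of Lamb2 and Mmp13 were lost without the conflicting replicates. The list medians lay between -0.16 and -0.04, against -0.13 over the collagen genes and -0.003 over all genes.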

How the data were processed

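RNA of whole small intestine or colon pools was labelled with Cy3 or Cy5 (500 ng each, linear amplification, per the labels). The deposited intensities were made by the authors with Agilent Feature Extraction 9.5.3, per the file headers. They are spot and background signals on a linear scale. Deposited flags, per the file headers, mark outliers and signals above background. The authors' deposited series table is on a log2 scale (KO relative to wild type), and 48.8% to 72.6% of an array's entries are exactly 0; how it was normalized and centred is not given in the sources used here, and it served as an alternative. Probe coordinates are mm8. Names came from the files, updated through the RefSeq gene table (23374 probes by accession, 6733 by symbol, 2919 by synonym, 8148 unchanged).

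limma 3.58.1 under R 4.3.3 corrected background (normexp, offset 50) and normalized by loess with control spots at weight 0; Aquantile scaling gave the single-channel levels. Control spots and outliers were left out, repeated spots averaged, ratios turned to KO over wild type, and dye orders averaged per pool. Fits held a term per group (9 replicates, 5 residual degrees of freedom), two-sided, with Benjamini-Hochberg adjustment over 17076 genes. The number of arrays limits the precision. The steps were tested on simulated data. There the wild type levels were given the spread of the KO ratios and not their own. That test therefore cannot show how the stage and tissue fits behave at the real spread of levels.

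Members, lists and tests were chosen with earlier results of these data known. By the naming rule, pool values are given for Col8a1 and for up to 3 genes per class and contrast that passed, taken by size of change, and up to 3 genes each way per pathway list; further collagen genes are named by class. The replicate numbers were not taken to link pools across groups: for KO ratios, same-numbered pools gave correlations of deviations from -0.133 to 0.152 and differently numbered pools from -0.159 to 0.159. For wild type levels the ranges were -0.902 to 0.912 and -0.917 to 0.917. Deviations within a group of 2 replicates are equal and opposite, so these ranges cannot show whether the numbers link pools. Alternatives are given in the closing section. No protein sequences were used here. A further result of the pathway lists is not reported here.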

Additional observations from a re-analysis of the deposited data

Results flagged for a closer look

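The KO effect on Col8a1 differed between groups by the test of the difference itself. The difference of adult minus fetal groups was -0.713 (limma, adjusted p = 0.0125), and that of colon minus small intestine was -0.729 (adjusted p = 0.0181). Behind them stood values of -1.25 (adult colon), -0.10 (fetal colon), -0.08 (adult small intestine) and 0.19 (fetal small intestine). Over the alternatives the adjusted p ran from 0.00384 to 0.893 for the first and from 0.00576 to 0.870 for the second. Groups held 2 or 3 replicates, fewer than the 4 a search for outlying pools needs, so no such search was made.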

How the results depend on the processing

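Of 287 alternative values of the 13 counts of collagen genes past the threshold, 217 stayed within 1.5 times of the reported count and 70 moved, 30 of these on leaving out a replicate. For Col8a1 in KO adult colon the alternatives gave -1.317 to -1.223. The cause of the changes below was not tested. Where replicates were left out, the number of samples was smaller as well. The reported counts were 4 for stage in small intestine, 5 for stage in colon, 10 for the stage mean, 0 for adult tissues, 0 for fetal tissues, 4 for KO adult colon and 1 each for the KO mean, the KO adult minus fetal difference and the KO colon minus small intestine difference. In that naming, scanner processed signals gave 8, 10 and 16 for stage in small intestine, in colon and in the mean, 2 for adult tissues and 0 for KO colon minus small intestine. Median centring gave 2 for adult tissues, 1 for KO adult colon and 0 for the KO mean and both KO differences. With no filter the KO mean and the KO adult minus fetal difference were 2 each. The mean of all probes gave 2 for those 2 counts and 1 for adult tissues, and a strict filter 1 for adult tissues. Slide as a random block gave 18 for the stage mean and 2 for adult tissues. Keeping fetal small intestine pairs 1 and 2 separate gave 2 for adult tissues, the KO mean and the KO adult minus fetal difference. Fitting only the groups compared gave 1 for stage in colon and 5 for adult tissues, and each group alone gave 2 for KO adult colon. KO pools in place of wild type pools gave 3 for stage in colon, and 0.504 for the Col8a1 stage mean, against -0.209. A trended and robust prior gave 1 for adult tissues and 0 for the KO mean and both KO differences. The authors' series table gave 2 for KO adult colon and 0 for KO colon minus small intestine. Without the replicates that went against their labels, stage in colon was 12, adult tissues 5, fetal tissues 3 and both KO differences 0. Within a slide, Col8a1 in fetal colon minus small intestine was -1.445. With the replicate block, stage in small intestine was 0, stage in colon 1, and the KO mean and KO colon minus small intestine 0; the Col7a1 call in KO adult colon was lost (adjusted p = 0.118). Col20a1 in KO adult colon was lost with median centring (adjusted p = 0.134).

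Leaving out each replicate in turn gave 0 to 6 for stage in small intestine, 1 to 5 for stage in colon, 5 to 16 for the stage mean, 0 to 3 for adult tissues, 2 to 7 for KO adult colon, 1 to 2 for the KO mean, 0 to 6 for KO adult minus fetal and 0 to 1 for KO colon minus small intestine. For Col8a1 it gave -0.729 to 0.312 for the stage mean (0.241 without fetal small intestine 1), -0.547 to 1.535 for fetal colon minus small intestine (-0.404 without fetal small intestine 1) and -0.273 to 0.08 for KO fetal colon. A dim probe gives only a bound: 6 of 40 genes were not tested, and the levels of 6 more are uncertain in some groups.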
